A study of Mus musculus with 24 samples.

Results

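The endogenous Myc locus was examined in chromatin immunoprecipitation (ChIP-seq) peak lists from mouse liver. Members were all peaks of any list that overlapped a 600 kb interval of mm9, chr15:61700000-62300000. The Myc gene lies in it from about 61816900 to about 61822000, and most of the interval is its downstream flank. Of 665214 peaks and regions in 23 lists, 347 met this rule. Distances below are in kb from the approximate gene start, positive toward the gene's end.

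Myc is a basic helix-loop-helix transcription factor that binds E-box sequences with its partner Max and drives genes for growth and cell division. Its own gene is controlled by enhancers spread over a long flank that also holds the noncoding gene Pvt1. YAP is a coactivator that Hippo kinase signalling restrains. It does not bind DNA itself and reaches chromatin mainly through the TEAD family of transcription factors, and active YAP is known to enlarge the liver. H3K4me3 marks promoters, H3K4me1 marks enhancers and promoter flanks, and H3K27ac marks active ones of either kind.

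All mice carried R26-rtTA, the doxycycline-dependent transactivator expressed from the Rosa26 locus, which is active in most cell types. The genotypes were wild-type (R26-rtTA only), tet-Myc, tet-YAP or the combined tet-Myc/YAP, and induction with doxycycline lasted 2 days. The YAP transgene, Col1A1-YAP S127A, encodes a form that escapes Hippo-dependent retention in the cytoplasm. The sources used here give neither ages nor how many animals stood behind a library. RNA polymerase II, TEAD, Myc, H3K27ac and H3K4me3 each had a list in the 4 genotypes, YAP had lists in the genotypes with its transgene, and H3K4me1 had a list in wild-type liver only. YAP chromatin was fixed with DSG and then formaldehyde, and all other chromatin with formaldehyde alone.

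Each antibody and genotype had 1 library, so no difference below has a replicate check and no p-value was computed. For a given antibody, every comparison with wild-type liver used the same wild-type library. ChIP tags ranged from 16.9 M (M is 1000000) in Myc tet-Myc/YAP to 50.6 M in RNA polymerase II tet-Myc. Libraries of an antibody differed in depth, least for TEAD (31.6 to 33.1 M) and most for RNA polymerase II (20.9 M in wild-type against 37.7 to 50.6 M). The 9 lists of histone marks state no depth. The Myc wild-type and YAP tet-YAP lists stood apart, with fragment sizes estimated at 51 and 56 bp against 287 to 364 bp in the other 12 lists of factors. Their peaks had median widths of 81 and 98 bp and whether this limited their counts was not tested. The YAP tet-Myc/YAP list had a control of 167 M tags against 17.4 M ChIP tags, where control and ChIP depth were nearly equal in the other 13 lists of factors. The part of this in the YAP folds, q values and counts was not tested. In whole liver, fewer cells holding a factor and less of it per cell cannot be told apart. A site without a peak was not called at the authors' p cutoff of 1e-05, which is not absence of binding.

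The locus held the fewest peaks in wild-type liver for Myc, TEAD and RNA polymerase II. Myc had 0 peaks in wild-type mice, 18 in tet-Myc, 9 in tet-YAP liver and 24 in tet-Myc/YAP. TEAD had 24, 35, 34 and 42 in the same order. RNA polymerase II had 3, 26, 17 and 23. With the lists of an antibody brought to equal length by -log10 q, TEAD had 24, 28, 34 and 27, so its highest count was then in tet-YAP, and Myc had 0, 1, 2 and 1. YAP had 1 peak in tet-YAP liver and 7 in tet-Myc/YAP. The numbers of marked regions lay close together, with 4, 4, 5 and 5 regions of H3K4me3, 11, 11, 12 and 12 of H3K27ac, and 20 of H3K4me1 in wild-type liver.

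**Figure D1:**
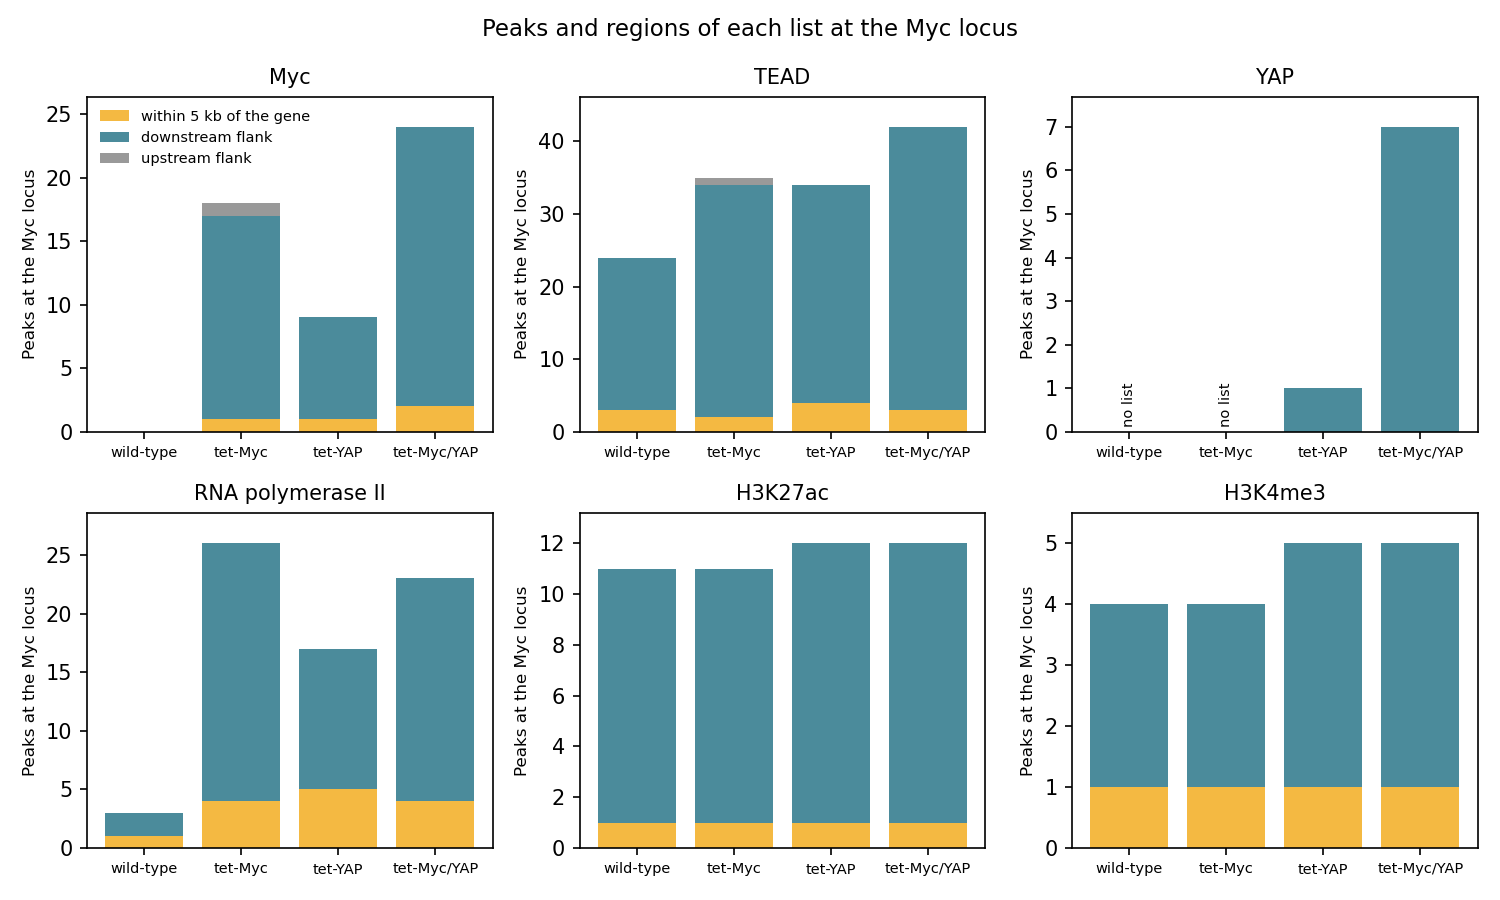
Number of peaks or regions at the Myc locus (y axis) in each genotype (x axis), 1 panel for each antibody and 1 library for each bar, split into within 5 kb of the gene, downstream flank and upstream flank. Nearly all lie downstream, and Myc has 0 in wild-type and 24 in tet-Myc/YAP.

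These counts were set against the mean of the same list over 3732 intervals of equal length. The intervals tile the genome, and those without a peak or region of any list were left out. TEAD was dense at the locus in every genotype, at 2.68 times that mean in wild-type mice, 2.95 in tet-Myc, 3.91 in tet-YAP liver and 2.99 in tet-Myc/YAP. Myc was at 2.06, 2.54 and 2.95 times its mean in the 3 transgenic genotypes, and YAP at 2.81 and 2.23. H3K4me1 in wild-type liver was at 3.44 times and H3K27ac between 2.00 and 2.30 times. RNA polymerase II was at 0.286 times its mean in wild-type mice and between 1.16 and 1.33 times in the others, but its counts were skewed: the median interval held 3 peaks in wild-type, the number at the locus, and 9, 5.5 and 7 in the transgenic lists. For Myc in wild-type liver the mean was 1.28 and the median 0, so the median interval of that short list of 4775 peaks held 0, as the locus did. H3K4me3 was near its mean, between 0.792 and 1.17 times.

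**Figure D2:**
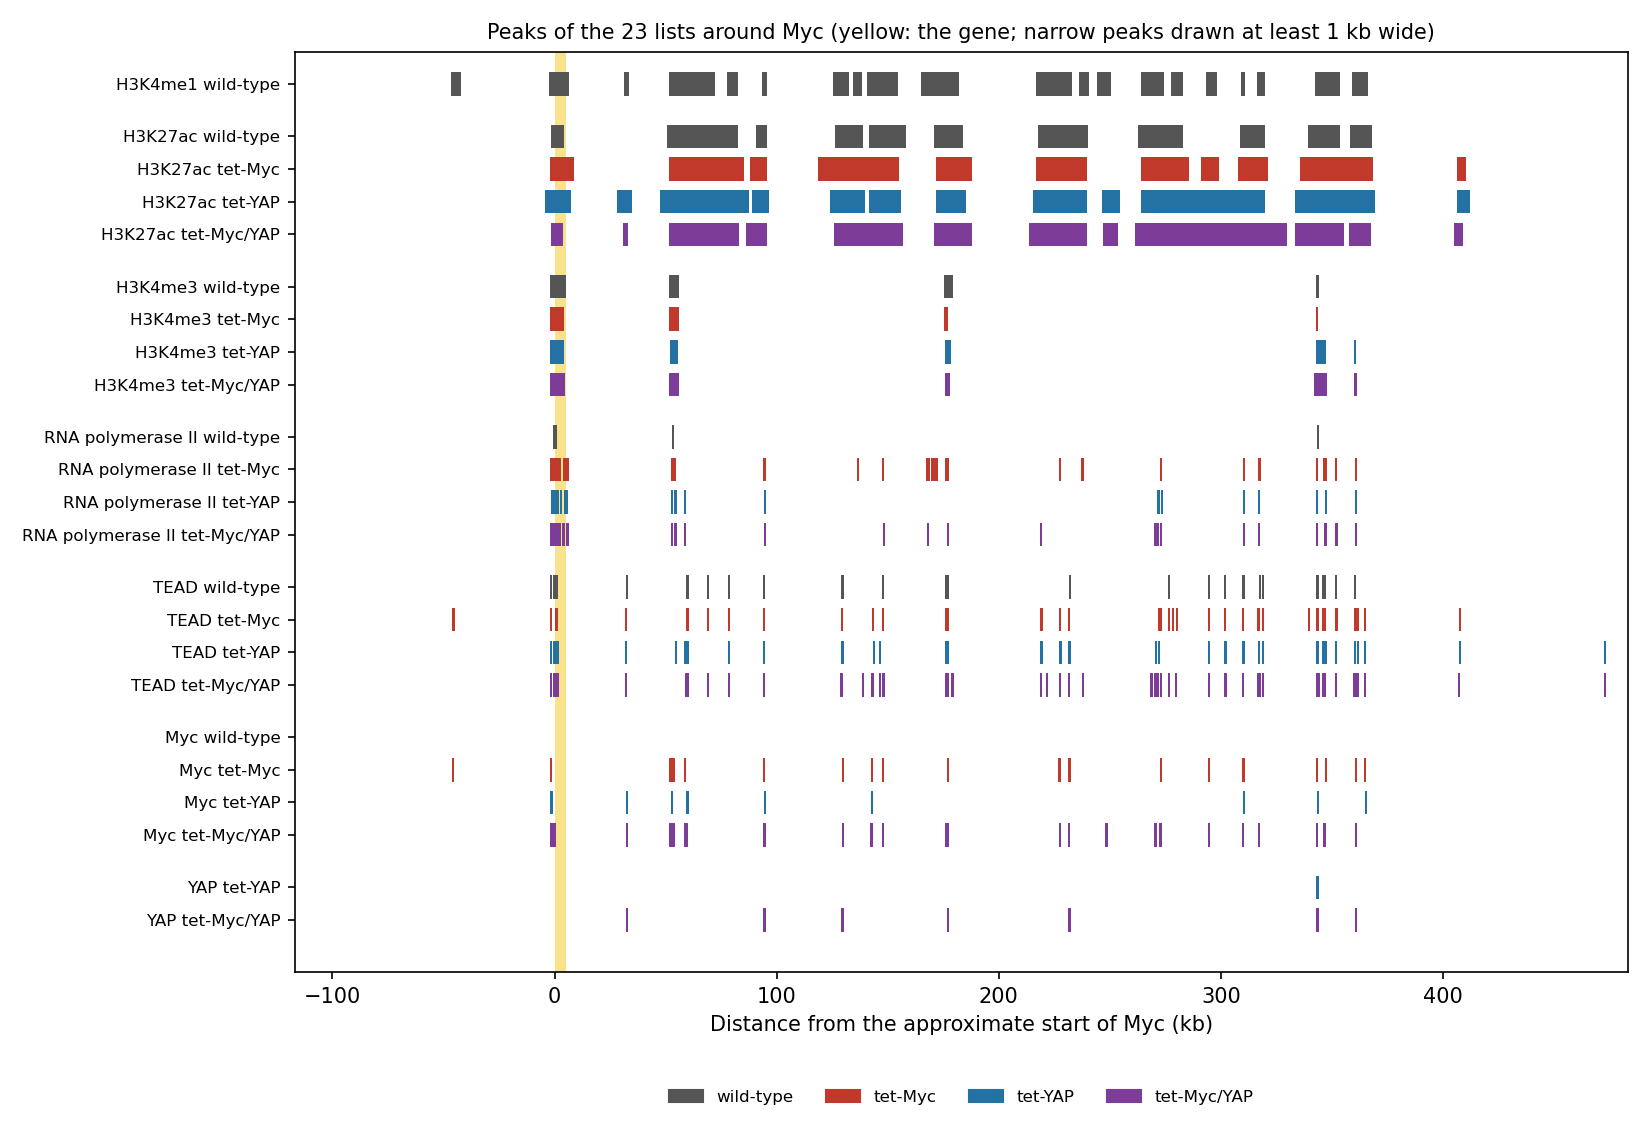
Peaks and regions of the 23 lists (rows, coloured by genotype) against distance from the approximate start of Myc in kb (x axis), with the gene in yellow. Factor peaks gather downstream, within broad H3K27ac and H3K4me1 regions, the upstream flank is almost empty, and the Myc wild-type row is empty.

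Within 5 kb of the gene, the promoter carried TEAD, RNA polymerase II and both active marks in every genotype, while Myc peaks were weak and YAP had none. In wild-type liver, 1 H3K4me3 region of 6891 bp ran from -1.9 to +5.0 kb, over nearly the whole gene. That region measured 6297 bp in tet-Myc, 6137 bp in tet-YAP liver and 6673 bp in tet-Myc/YAP, ending between +4.3 and +4.7 kb. By score its rank within the list was higher in the livers with the YAP transgene: it stood above 86.7% of regions in wild-type mice, 83.2% in tet-Myc, 99.4% in tet-YAP liver and 99.3% in tet-Myc/YAP. H3K27ac at the gene measured 6059, 10697, 11942 and 5799 bp in the same order. By score it stood above 72.2% of its list in wild-type and above 92.2%, 96.2% and 92.1% in the transgenic livers.

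RNA polymerase II, the enzyme that transcribes protein-coding genes, peaked close to the gene start in every genotype. The summit pileup, which is the number of fragments stacked at the highest base, was 97 in wild-type mice, 251 in tet-Myc, 209 in tet-YAP liver and 270 in tet-Myc/YAP. Per M ChIP tags it was 4.64, 4.96, 5.54 and 5.89. These levels lay close together. The ratio to wild-type was 1.07 in tet-Myc (95% exact interval 0.843 to 1.37), 1.19 in tet-YAP liver (0.934 to 1.54) and 1.27 in tet-Myc/YAP (1.00 to 1.62), where the median over all RNA polymerase II peaks found in both lists was 1.02, 0.914 and 0.913. Intervals here and below cover counting error only. Of the 3 wild-type peaks of the locus, none was at least 2-fold higher in a transgenic liver, against 3.58% of the list in tet-Myc, 0.75% in tet-YAP liver and 2.47% in tet-Myc/YAP.

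The promoter peak was wider in the transgenic livers, at 1862 bp in wild-type against 4212, 3337 and 4117 bp. Further RNA polymerase II peaks over the gene body and past its end were seen in tet-Myc, tet-YAP and combined tet-Myc/YAP and in no wild-type list. Near +5.6 kb, just past the gene's end, the pileup per M tags was 1.48 in tet-Myc, 1.22 in tet-YAP liver and 1.33 in tet-Myc/YAP. A Myc transgene can add tags over the gene itself in tet-Myc and tet-Myc/YAP, where its sequence matches, and its part was not tested. In RNA polymerase II, 3 peaks overlapped the gene in each transgenic list. Within 5 kb of the gene its peaks covered 7.59 kb in tet-Myc, 5.21 kb in tet-YAP liver and 7.12 kb in tet-Myc/YAP. No Myc peak of any list overlapped the gene itself. Such counts and lengths cannot tell tags of a transgene from tags of the gene. The depth of the RNA polymerase II lists moved with the widths and counts, and its part was not tested.

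TEAD held 2 sites in the gene zone in all 4 genotypes, upstream of the promoter and in the gene's first part. At the -1.7 kb site (chr15:61814783-61815659) the TEAD pileup was 44 in wild-type mice, 38 in tet-Myc, 30 in tet-YAP liver and 42 in tet-Myc/YAP. At the +1.0 kb site (chr15:61816876-61818974) it was 48, 51, 32 and 64. All intervals of the ratios to wild-type at these sites held 1, with ratios from 0.681 to 1.35. The -0.4 kb site (chr15:61816205-61816815) held TEAD peaks with pileups of 41, 34 and 34 in wild-type, tet-YAP and the combined genotype, and the tet-Myc list had none there.

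Myc at its own promoter was near the lower limit of what the lists held. At -1.7 kb the Myc pileup was 20 in tet-Myc, 26 in tet-YAP liver and 20 in tet-Myc/YAP, with folds over control of 5.49, 3.86 and 6.47. These exceeded only 4.09%, 28.3% and 4.49% of the peaks in their lists by pileup. The -0.4 kb site had a Myc peak in tet-Myc/YAP only, with a pileup of 23 and a fold of 7.40. With peaks of -log10 q of at least 10 alone, tet-Myc and tet-YAP had 0 Myc peaks within 5 kb of the gene, and tet-Myc/YAP had 1.

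YAP had 0 peaks within 5 kb of the gene in either list. Among wild-type H3K4me3 regions that held Myc in tet-Myc and tet-Myc/YAP and TEAD in wild-type mice, as the Myc region does, 63.5% of 10798 held a YAP peak in tet-Myc/YAP. The Myc region was one of those without. Its pattern over the 22 other lists, present in 19 of them, was shared exactly by 864 of 18851 other wild-type H3K4me3 regions (4.58%). The 3 of these closest in width lay at chr4:132646258-132653145, chr12:8502639-8509523 and chr11:106468883-106475785, with widths of 6888, 6885 and 6903 bp.

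The strongest Myc site of the locus was not at the gene but at +53.0 kb (chr15:61868568-61871158), and it held no TEAD or YAP peak in any genotype. A TEAD peak called in tet-YAP alone began just past its end, at +54.6 kb (chr15:61871243-61871735). With peaks joined within 500 bp, both fell in the same site, which then held TEAD. The Myc pileup at +53.0 kb was 164 in tet-Myc, 71 in tet-YAP liver and 248 in tet-Myc/YAP, or 7.94, 2.72 and 14.7 per M ChIP tags. Myc in the wild-type list had no peak there. The order was clear beyond counting error: tet-Myc over tet-YAP was 2.92 (2.20 to 3.92), tet-Myc/YAP over tet-Myc 1.85 (1.51 to 2.26) and tet-Myc/YAP over tet-YAP 5.40 (4.13 to 7.14). Over all shared Myc peaks those ratios had medians of 2.06, 1.36 and 3.09. Ratios of at least 2 were found in 3 of 7 shared peaks of the locus against 53.2% of the list for tet-Myc over tet-YAP, in 1 of 16 against 6.77% for tet-Myc/YAP over tet-Myc, and in 5 of 8 against 84% for tet-Myc/YAP over tet-YAP.

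At +53.0 kb the Myc peak ranked 233 of 32592 by pileup in tet-Myc, 615 of 13227 in tet-YAP liver and 160 of 30327 in tet-Myc/YAP. The site carried the promoter mark in every genotype: H3K4me3 regions of 4078, 4534, 3839 and 4508 bp, H3K27ac, and an RNA polymerase II peak with pileups of 24, 59, 67 and 86. Per M tags RNA polymerase II was 1.15 in wild-type mice, 1.17 in tet-Myc, 1.78 in tet-YAP liver and 1.88 in tet-Myc/YAP. The ratio to wild-type was 1.02 (0.623 to 1.71), 1.55 (0.958 to 2.58) and 1.64 (1.03 to 2.69). In gene order the neighbour downstream of Myc is Pvt1, but positions of genes other than Myc in mm9 were not used here, so the site was not assigned to a gene.

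A strong Myc peak without TEAD was uncommon over the whole list. Of all Myc peaks in tet-Myc/YAP, 14.6% overlapped no TEAD peak in any genotype, and the joined sites of the locus without TEAD described below were those at +53.0 and +248.2 kb. Among the 156 peaks with a -log10 q at least as high as that at +53.0 kb, 4 lacked TEAD (2.56%). Of wild-type H3K4me3 regions with Myc in tet-Myc and tet-Myc/YAP, 4.16% of 12802 held no TEAD peak in any genotype. The wild-type H3K4me3 region at +53.0 kb was not one of these, since it also overlapped the tet-YAP TEAD peak at +54.6 kb. These comparisons were chosen after the +53.0 kb values were seen.

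Joining overlapping Myc, TEAD and YAP peaks of any genotype gave 47 sites, 3 within 5 kb of the gene, 1 upstream and 43 downstream. TEAD was found at 45 sites and Myc at 24, of which 22 held both. TEAD alone held 23 sites. YAP was found at 7, all of them with TEAD and Myc. Pairwise in wild-type mice, 22 of 24 TEAD peaks overlapped H3K4me1 (82.4% of the list), 21 overlapped H3K27ac (81.9%), 6 overlapped H3K4me3 (56.6%) and 3 overlapped RNA polymerase II (48.1%). Wild-type H3K4me1 covered 42 sites and wild-type H3K27ac 40, but wild-type H3K4me3 only 8 and wild-type RNA polymerase II 4. So most of these sites lay in wild-type H3K4me1 and H3K27ac chromatin, as did most TEAD peaks of the whole wild-type list. The 3 sites at +301.9, +407.2 and +472.6 kb held none of the wild-type marks. Sites were joined at the locus only, so the counts of sites have no share over the whole lists beside them.

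Most TEAD peaks of wild-type liver were found again in the transgenic livers, which added others. Of the 24 wild-type TEAD peaks, 23 were found again in tet-Myc (82.3% of the whole list), 21 in tet-YAP liver (73% of the list) and 24 in tet-Myc/YAP (87.8% of the list). In the other direction, 23 of 35 tet-Myc peaks (63.2% of the list), 22 of 34 tet-YAP peaks (76.4%) and 23 of 42 tet-Myc/YAP peaks (55.3%) overlapped a wild-type peak. TEAD peaks without a wild-type partner had median pileups per M tags of 1.12, 0.988 and 1.16 in the 3 transgenic livers, against 1.20, 1.05 and 1.32 over their whole lists. Of the 34 tet-YAP peaks, tet-Myc/YAP shared 33 (92.2%).

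The strongest TEAD site was at +343.7 kb (chr15:62159672-62161436), and a close neighbour in strength lay at +360.5 kb (chr15:62176589-62178148). At +343.7 kb the TEAD pileup was 143 in wild-type mice, 323 in tet-Myc, 216 in tet-YAP liver and 410 in tet-Myc/YAP, or 4.32, 10.2, 6.67 and 12.6 per M tags. At +360.5 kb it was 124, 310, 204 and 374, or 3.74, 9.82, 6.30 and 11.5 per M. By pileup these peaks ranked 177 and 304 of 33417 in wild-type and 55 and 95 of 52392 in tet-Myc/YAP.

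TEAD levels at both sites followed the order wild-type, tet-YAP, tet-Myc, tet-Myc/YAP. At +343.7 kb the ratio to wild-type was 2.37 (1.94 to 2.90) in tet-Myc liver, 1.54 (1.24 to 1.92) in tet-YAP liver and 2.91 (2.40 to 3.54) in tet-Myc/YAP. At +360.5 kb it was 2.62 (2.12 to 3.25), 1.68 (1.34 to 2.12) and 3.06 (2.49 to 3.78). TEAD ratios to wild-type had medians over all shared peaks of 1.27, 0.986 and 1.51. In tet-Myc and tet-Myc/YAP the median of the whole list thus lay above wild-type too, though the lowest 10% of ratios ended at 0.824 and 0.899. The tet-Myc/YAP level exceeded tet-Myc by little, at 1.23 (1.06 to 1.43) and 1.17 (1.00 to 1.36), where the list median was 1.23.

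The same order was seen at +318.8 kb (chr15:62135234-62136193), a TEAD site with no Myc or YAP peak in any list, picked after its values were seen. Its TEAD pileup was 57 in wild-type mice, 153 in tet-Myc, 82 in tet-YAP liver and 223 in tet-Myc/YAP. The ratio to wild-type was 2.81 (2.06 to 3.89), 1.47 (1.04 to 2.10) and 3.97 (2.96 to 5.41), the highest of the locus in tet-Myc and in tet-Myc/YAP. At +346.5 kb (chr15:62162559-62164323) the stronger TEAD peak had pileups of 51, 94, 69 and 160. Over the locus, at least 2-fold higher TEAD than in wild-type was found at 3 of 22 shared peaks in tet-Myc (12.4% of the list), 1 of 21 in tet-YAP liver (1.97%) and 10 of 22 in tet-Myc/YAP (28.3%).

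Against the transgenic lists, TEAD in tet-Myc/YAP was at least 2-fold higher than in tet-Myc at 4 of 30 shared peaks (6.19% of the list) and than in tet-YAP at 9 of 30 (28.8%). The widest gap to tet-YAP was at +143.3 kb, also picked after its values were seen. TEAD had no wild-type peak there, and its pileup was 88 in tet-Myc, 32 in tet-YAP liver and 141 in tet-Myc/YAP. The ratio of tet-Myc/YAP to tet-YAP was 4.37 (2.96 to 6.64), above 99.6% of shared peaks.

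**Figure D3:**
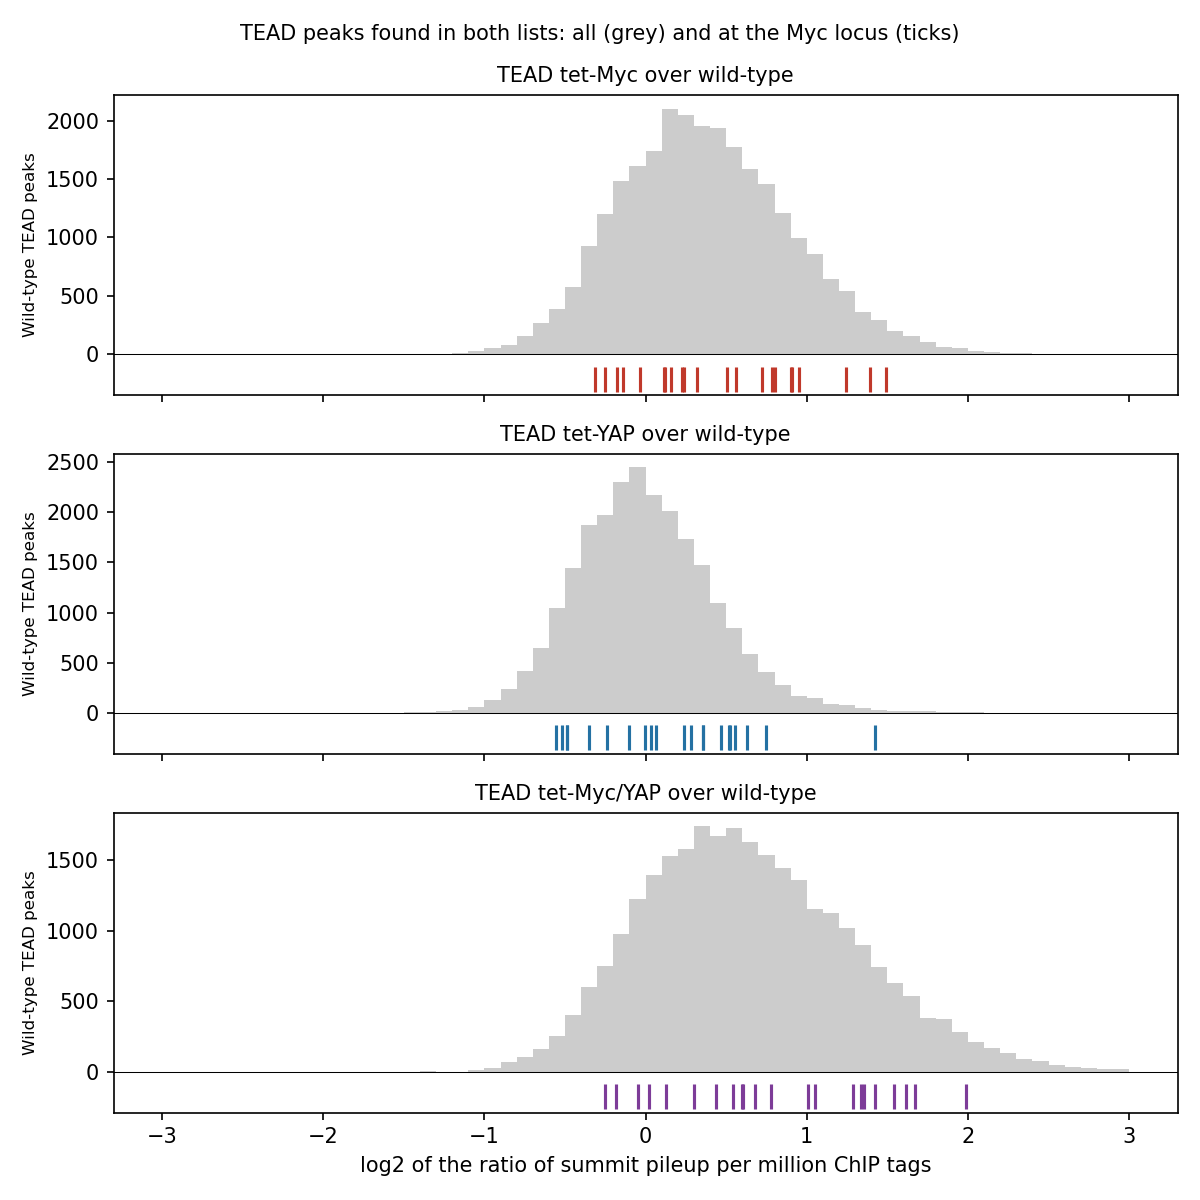
Distribution of the log2 ratio of TEAD summit pileup per M ChIP tags, transgenic over wild-type (x axis), for all wild-type TEAD peaks found in both lists (grey bars, y axis in number of peaks) and for those at the Myc locus (coloured ticks). The middle of the grey bars lies to the right of 0 in tet-Myc and tet-Myc/YAP, with medians of 1.27 and 1.51 as ratios, and the ticks of the locus spread across most of their range.

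The tet-YAP liver differed at +32.1 kb (chr15:61848523-61849470), picked after its values were seen. The TEAD pileup was 37 in wild-type mice, 50 in tet-Myc, 97 in tet-YAP liver and 92 in tet-Myc/YAP. The ratio to wild-type was 1.42 (0.908 to 2.23) in tet-Myc liver, 2.68 (1.82 to 4.03) in tet-YAP liver and 2.52 (1.71 to 3.80) in tet-Myc/YAP. The tet-YAP ratio was above 99.5% of shared peaks in that list. Both livers with the YAP transgene also had a Myc peak there, with pileups of 22 in tet-YAP liver and 43 in tet-Myc/YAP, and an H3K27ac region of 6356 and 2445 bp. Neither was called in wild-type or tet-Myc, where H3K4me1 was the one mark, measured in wild-type.

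Myc peaks of the locus lay mostly on TEAD sites and on chromatin marked in wild-type liver, as did the peaks of the whole lists. A Myc peak overlapped a TEAD peak of the same genotype at 15 of 18 in tet-Myc (66.6% of the list), 7 of 9 in tet-YAP liver (72.1%) and 21 of 24 in tet-Myc/YAP (81.3%). All Myc peaks of the locus overlapped wild-type H3K4me1, 18 of 18 in tet-Myc (90.1% of the list), 9 of 9 in tet-YAP liver (92.8%) and 24 of 24 in tet-Myc/YAP (88.4%). By contrast, 4 of 18 in tet-Myc (61.2%), 3 of 9 in tet-YAP liver (75.1%) and 9 of 24 in tet-Myc/YAP (66.5%) overlapped H3K4me3 of the same genotype, so at the locus fewer Myc peaks in proportion lay on the promoter mark than in the lists as a whole. RNA polymerase II of the same genotype was found at 11 of 18 in tet-Myc (78.4%), 5 of 9 in tet-YAP liver (89.2%) and 14 of 24 in tet-Myc/YAP (73.4%).

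The Myc peaks of tet-Myc and tet-Myc/YAP mostly lay at the same places, and most of the fewer tet-YAP peaks were among them. Of 18 tet-Myc peaks, tet-Myc/YAP shared 16 (81.5% of the list) and tet-YAP shared 7 (34.3%). Of 24 tet-Myc/YAP peaks, tet-Myc shared 17 (85%) and tet-YAP shared 8 (36.1%). Of 9 tet-YAP peaks, tet-Myc shared 7 (89.9%) and tet-Myc/YAP shared 8 (89.5%).

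By site, Myc was found in all 3 transgenic genotypes at 6 sites (-1.7, +53.0, +94.3, +142.5, +310.1 and +343.7 kb). It was found in tet-Myc and tet-Myc/YAP but not in tet-YAP at 10, in tet-Myc/YAP alone at 4 and in tet-Myc alone at 1, the upstream site at -45.8 kb. The remaining 3 were at +32.1 and +59.8 kb, without tet-Myc, and at +364.8 kb, without tet-Myc/YAP. Sites were joined at the locus only, so these counts have no share over the whole lists. By peaks, tet-YAP shared 34.3% of the whole tet-Myc list and 36.1% of the whole tet-Myc/YAP list. At +343.7 kb, the strongest TEAD site, Myc had pileups of 53 in tet-Myc, 26 in tet-YAP liver and 61 in tet-Myc/YAP. Per M tags, tet-Myc/YAP over tet-Myc was 1.41 (0.957 to 2.07) there. At +310.1 kb (chr15:62126481-62127534) the Myc pileups were 36, 20 and 50. Only at +142.5 kb, picked after its values were seen, was Myc at least 2-fold higher in tet-Myc/YAP than in tet-Myc, with pileups of 48 and 19 and a ratio of 3.09 (1.78 to 5.56).

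**Figure D4:**
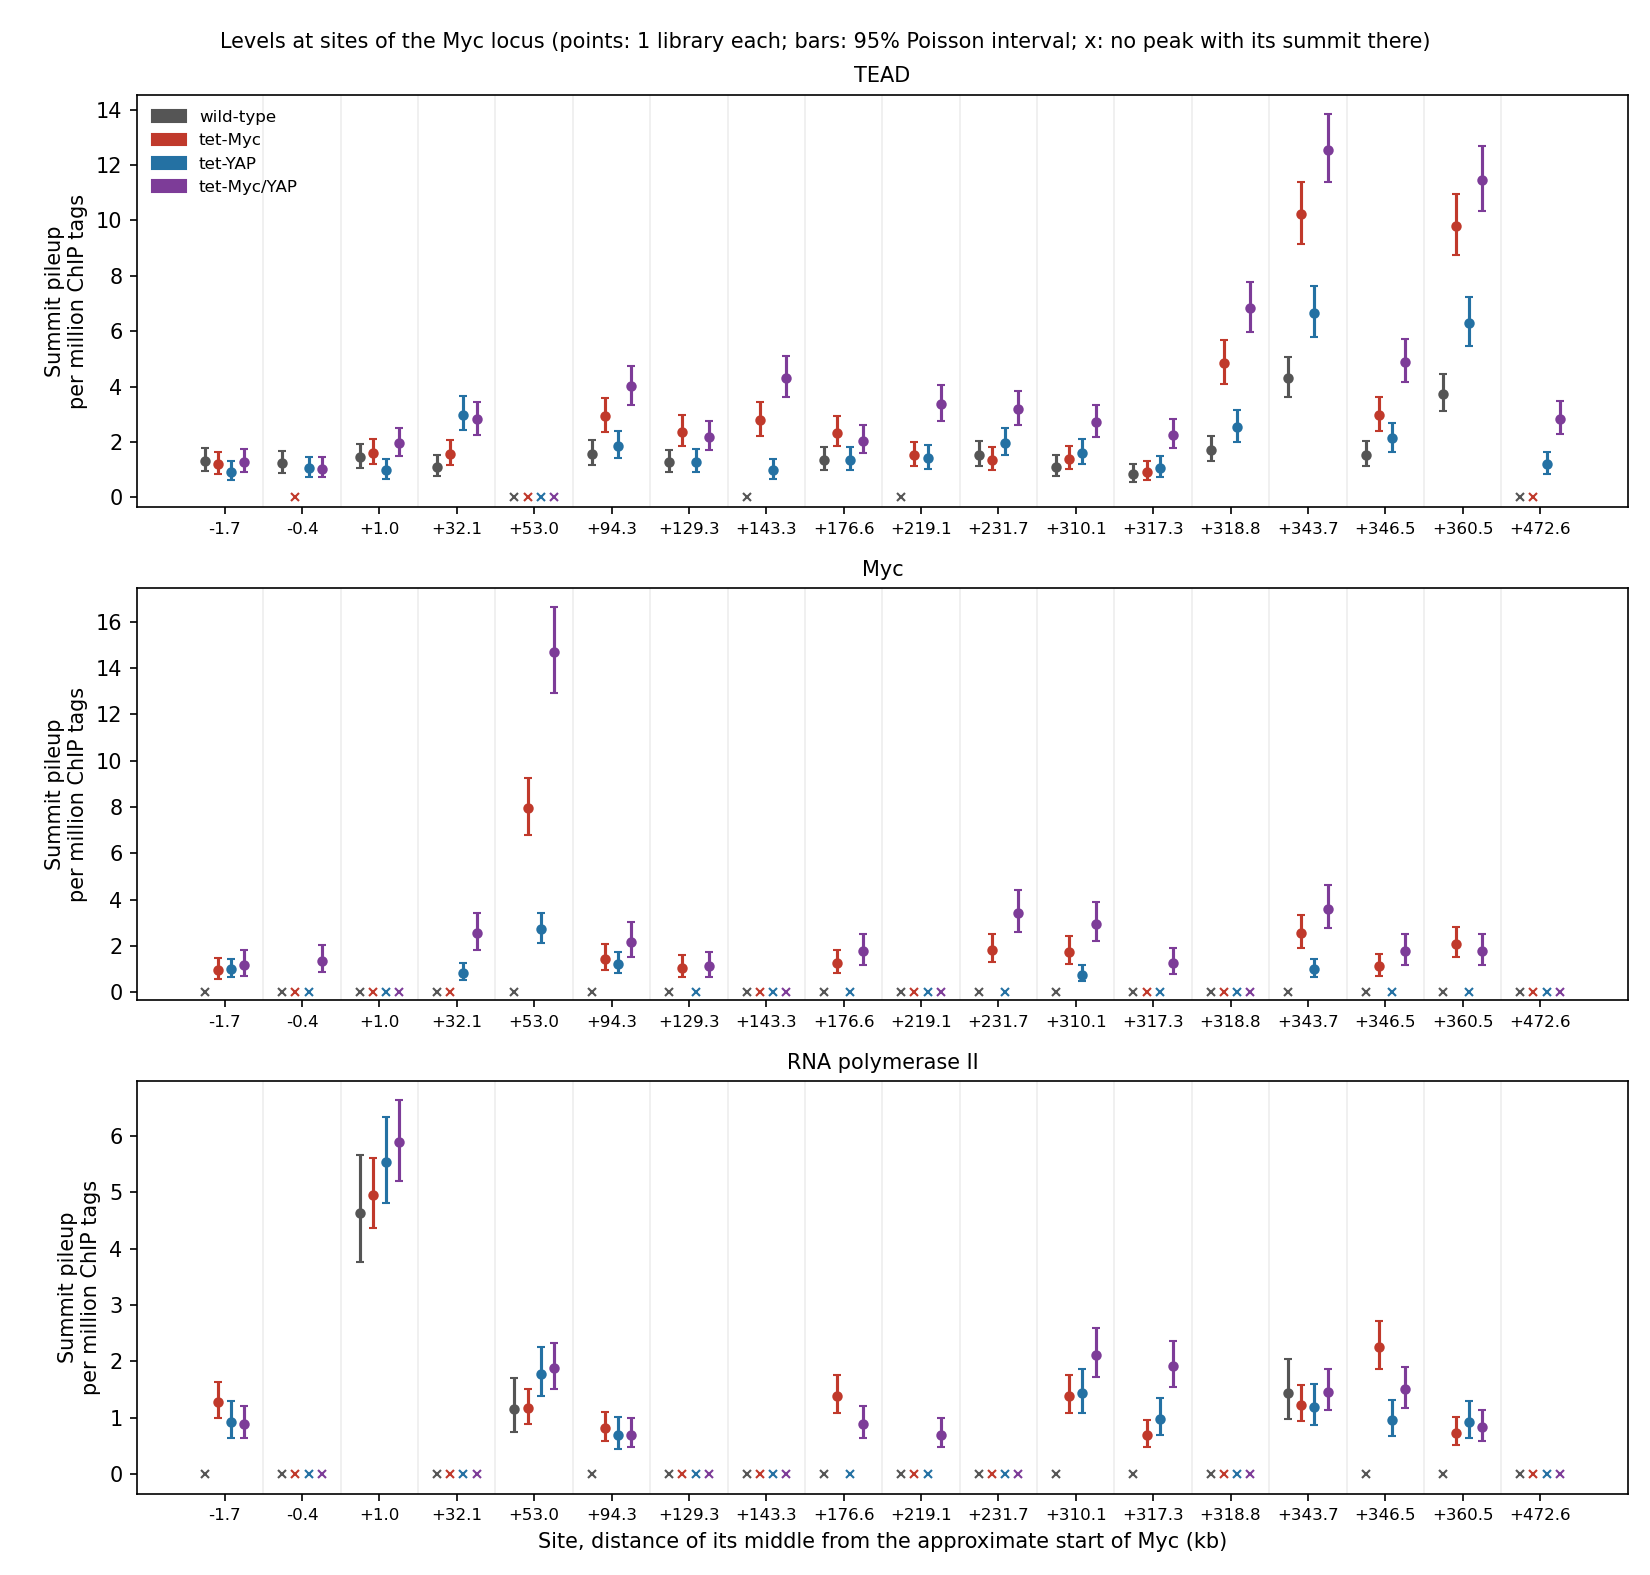
Summit pileup per M ChIP tags (y axis) of TEAD, Myc and RNA polymerase II at 18 sites of the Myc locus (x axis, distance in kb), coloured by genotype. Points are 1 library each, bars are 95% Poisson intervals, and a cross at 0 means that no peak had its summit there. TEAD is highest at +343.7 and +360.5 kb, Myc at +53.0 kb, and RNA polymerase II at the gene.

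YAP peaks at the locus were all downstream and all on sites that held TEAD in wild-type liver too. The 7 YAP peaks in tet-Myc/YAP lay at +32.1, +94.3, +129.3, +176.6, +231.7, +343.7 and +360.5 kb. All 7 overlapped TEAD in tet-Myc/YAP (94.2% of the list), Myc in tet-Myc/YAP (91.1%) and TEAD in wild-type (86.3%). All 7 also overlapped H3K27ac in tet-Myc/YAP (96.7%) and H3K4me1 in wild-type (93.6%), and 6 overlapped H3K27ac in wild-type (94.4%). Only 3 overlapped H3K4me3 in tet-Myc/YAP (78.1%). Read from the other factors, YAP was found at 7 of 24 Myc peaks (33.9% of the list) and 7 of 42 TEAD peaks (21.1%) in tet-Myc/YAP. YAP pileups were between 21 and 35, highest near +177.0 kb with 35 and a fold of 9.90, and 34 with a fold of 10.1 at +343.7 kb.

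The tet-YAP liver had 1 YAP peak, at +343.7 kb, with a pileup of 15 and a -log10 q of 8.46. It overlapped a YAP peak of tet-Myc/YAP, as did 47.1% of the tet-YAP list. In the other direction, 1 of 7 tet-Myc/YAP peaks was found in tet-YAP (4.73% of the list). The +343.7 kb site was present in 22 of the 23 lists, all but Myc in wild-type liver. In the tet-YAP and tet-Myc/YAP lists the number of YAP peaks was 1328 and 11719, and the short fragment size of the tet-YAP library and the deep control of tet-Myc/YAP moved with this difference. With both lists at equal length, tet-Myc/YAP had 2 YAP peaks at the locus and tet-YAP 1.

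The other sites with YAP in tet-Myc/YAP held TEAD in all 4 genotypes too. At +94.3 kb (chr15:61910653-61911818) TEAD pileups were 52, 93, 60 and 131. Those at +129.3 kb (chr15:61945502-61946831) were 42, 75, 42 and 71, and those at +231.7 kb (chr15:62048099-62049012) were 51, 43, 64 and 104. At +176.6 kb (chr15:61992541-61994365) the pileup of the stronger TEAD peak was 45, 74, 44 and 67. In tet-Myc/YAP the highest TEAD pileups, 410 at +343.7 kb and 374 at +360.5 kb, were at sites with a YAP peak. The next highest, 223 at +318.8 kb and 160 at +346.5 kb, exceeded those at 5 of the 7 YAP sites and had no YAP peak called. A site without a call is not one without binding, and whether YAP went with TEAD level was not tested.

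RNA polymerase II in the flank was called at few places in wild-type and at many in the transgenic livers. Beside the promoter, its wild-type peaks lay at +52.9 and +343.3 kb, with pileups of 24 and 30. The covered length over the locus was 2.58 kb in wild-type mice, 21.9 kb in tet-Myc, 11.9 kb in tet-YAP liver and 18.3 kb in tet-Myc/YAP. Relative to wild-type this was 8.50, 4.61 and 7.10 times, where the whole lists stood at 2.23, 1.48 and 1.81 times. The 3 wild-type peaks were found again in every transgenic list (90.7% of the wild-type list in tet-Myc and 84.5% in each of the others). Among the transgenic livers, 15 of 17 tet-YAP peaks were found in tet-Myc (83%), 17 of 17 in tet-Myc/YAP (77%), and 17 of 23 tet-Myc/YAP peaks had a tet-Myc partner (81%).

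The wild-type library was the shallowest, and its list reached less deep. The lowest 10% of its peaks ended at 0.908 pileup per M tags, against 0.613, 0.662 and 0.611 in tet-Myc, tet-YAP and combined tet-Myc/YAP. In tet-Myc, 3 of 26 peaks overlapped a wild-type one (37.7% of the list). In tet-YAP liver 3 of 17 did (52.9%), and in tet-Myc/YAP 3 of 23 (43.4%). Of those without a wild-type partner, 13 of 23, 5 of 14 and 11 of 20 in this order were below 0.908. Below the wild-type median of 1.29 were 18, 12 and 15 of them. The share of such low peaks over the whole lists was not counted. With the 4 lists cut to equal length by -log10 q, the locus still held 3 peaks in wild-type and 17, 14 and 16 in the transgenic livers. At +343.7 kb, where all 4 lists had a peak, the intervals of the ratios to wild-type all held 1, at 0.854 (0.544 to 1.37), 0.831 (0.512 to 1.37) and 1.02 (0.653 to 1.62).

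Among the transgenic livers, RNA polymerase II levels at the flank sites differed in both directions. At +317.3 kb (chr15:62133329-62134990) the pileup was 35 in tet-Myc, 37 in tet-YAP liver and 88 in tet-Myc/YAP, and tet-Myc/YAP over tet-Myc was 2.78 (1.86 to 4.23). That site also held a Myc peak in tet-Myc/YAP alone, and its TEAD ratio of tet-Myc/YAP to tet-Myc was 2.47 (1.59 to 3.94). It was the 1 of 17 shared peaks at or past 2-fold, against 0.65% of the list. Near +147.9 kb, picked after its values were seen, the pileup went the other way, from 115 in tet-Myc to 46 in tet-Myc/YAP, a ratio of 0.442 (0.307 to 0.627). Between tet-Myc/YAP and tet-YAP, 0 of 15 shared peaks were at or past 2-fold, against 1.97% of the list.

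H3K27ac covered more of the locus in the transgenic livers than in wild-type, while the whole lists covered no more. It covered 164.2 kb of the locus in wild-type mice, 207.0 kb in tet-Myc, 239.9 kb in tet-YAP liver and 234.7 kb in tet-Myc/YAP. Relative to wild-type this was 1.26, 1.46 and 1.43 times, where whole lists stood at 0.996, 0.999 and 0.870 times. The 11 wild-type regions were found again in every transgenic genotype (92.6%, 92.2% and 89.5% of the list), and 9 of 11, 9 of 12 and 9 of 12 transgenic regions overlapped a wild-type one (83.2%, 84.9% and 82.1%). In the upper part of each list by score the ratios to wild-type were 2.17, 2.25 and 2.25. The depth of these lists is not stated, and its part was not tested.

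The number of H3K27ac regions was 11, 11, 12 and 12, and the widest measured 32179, 36290, 55945 and 68491 bp. How much of the gain came from wider, joined or added regions was not counted. Between about +261 and +330 kb, wild-type liver had regions of 20300 and 11268 bp. In tet-Myc there were 3 regions, the widest of 21624 bp. These were a single region of 55945 bp in tet-YAP liver and of 68491 bp in tet-Myc/YAP. Around the TEAD sites at +343.7 and +360.5 kb, wild-type had separate regions of 14632 and 9868 bp, which were joined into 32820 bp in tet-Myc and 36275 bp in tet-YAP. In tet-Myc/YAP they were separate, at 22222 and 9803 bp.

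H3K4me3 in the flank was found at +53.0, +176.6 and +343.7 kb in every genotype, each a site of TEAD, Myc or both. Near +343.7 kb its region was 1394 bp in wild-type and 1241 bp in tet-Myc, but 4579 bp in tet-YAP liver and 5665 bp in tet-Myc/YAP, where it reached the +346.5 kb site. At +360.5 kb an H3K4me3 region was called in tet-YAP (866 bp) and tet-Myc/YAP (1458 bp) alone. All wild-type regions of the locus were found again in each transgenic genotype (90.5%, 82.3% and 90.9% of the list in tet-Myc, tet-YAP and combined tet-Myc/YAP).

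Regions called in both livers with the YAP transgene and in neither wild-type nor tet-Myc were counted after their values were seen. H3K4me3 had 1 of 5 tet-Myc/YAP regions of this kind at the locus, against 0.344% of the list. H3K27ac had 2 of 12, at +32.0 and +250.3 kb, against 2.19%. TEAD had 4 of 42 peaks of this kind, at +58.7, +146.3, +270.6 and +472.6 kb, against 3.28%. Of these the +472.6 kb site (chr15:62289218-62289823) held no mark and no RNA polymerase II, with TEAD pileups of 39 in tet-YAP liver and 93 in tet-Myc/YAP and a ratio of 2.37 (1.61 to 3.53).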

How the data were processed

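Livers of 4 genotypes were profiled by ChIP-seq, 1 library for each antibody and genotype. An input sample without a genotype label has no peak list and was not used. Per the labels, the authors' processing used BWA 0.6.2, SAMtools and MACS2 2.0.9 with mm9. The 14 lists of RNA polymerase II, TEAD, Myc and YAP were deposited with the summit pileup as a signal, the fold enrichment over control, and -log10 p and q values. The 9 deposited lists of histone marks hold a score for each broad region, used here as a rank within its list.

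Peaks overlapping the interval by at least 1 bp were members, and overlaps used the same minimum. Pileups were divided by ChIP tags in units of 1000000, per the file headers. Ratios paired each peak of the list in the denominator with the highest overlapping peak of the other list. Where several peaks shared a partner, only the highest of them kept it. Ratios had 95% exact binomial intervals, and pileups had Poisson ones. Python 3.11.15, numpy 2.4.6, pandas 2.3.3, scipy 1.17.1 and matplotlib 3.10.9 were used, and overlap counting was tested on simulated data. Sites named by rule were those within 5 kb of the gene and the 10 flank sites present in the most lists, with ties broken by the highest -log10 q and then by position. Others were picked after their values were seen, as stated. Members, lists and comparisons were chosen with earlier results of these data known. Alternatives were -log10 q of at least 10, summits inside, lists of equal length, joining peaks within 500 bp, and the upper part of mark lists by score. Genes other than Myc were not assigned to peaks, gene order was taken from RefSeq of another build (GRCm38.p6), and markers of the liver were not checked.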

Additional observations from a re-analysis of the deposited data

Results flagged for a closer look

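The covered length of both histone marks at the locus changed with the Myc transgene in opposite directions without and with the YAP transgene. Over the whole lists it fell in both cases. For H3K4me3 it went from 82.3 Mb in wild-type to 63.6 Mb in tet-Myc, and from 73.2 Mb in tet-YAP to 62.3 Mb in tet-Myc/YAP. For H3K27ac it went from 231.4 to 230.6 Mb and from 231.2 to 201.4 Mb. The covered length of H3K4me3 at the locus changed by -2.26 kb from wild-type to tet-Myc and by +2.35 kb from tet-YAP to tet-Myc/YAP. The covered length of H3K27ac changed by +42.8 kb from wild-type to tet-Myc and by -5.16 kb from tet-YAP to tet-Myc/YAP. For H3K4me3 the opposite directions were lost in the upper part of the lists by score, where the changes were +3.94 and +5.04 kb. For H3K27ac they were then +85.6 and -0.35 kb. Each genotype had 1 library, so the difference between these changes was not tested.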

How the results depend on the processing

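No paired analysis was possible because each antibody and genotype had 1 library. Counting summits in place of overlaps, or joining peaks within 500 bp, left every value within the limits set for it. Joining within 500 bp did, however, put the tet-YAP TEAD peak at +54.6 kb into the +53.0 kb Myc site, which otherwise held no TEAD. With -log10 q of at least 10, Myc tet-YAP fell to 2 peaks and YAP tet-YAP to 0. Within 5 kb of the gene, Myc then had 0 peaks in tet-Myc, 0 in tet-YAP liver and 1 in tet-Myc/YAP, and RNA polymerase II tet-YAP had 3. Both remaining tet-YAP Myc peaks (100%) were found in tet-Myc. With lists of equal length, Myc had 1 peak in tet-Myc, 2 in tet-YAP liver and 1 in tet-Myc/YAP, TEAD tet-Myc/YAP had 27 against 34 in tet-YAP, YAP tet-Myc/YAP had 2 and RNA polymerase II tet-Myc had 17. These Myc counts rest on the short wild-type list of 4775 peaks. Then 79.2% of wild-type TEAD peaks were found in tet-Myc and 79.2% in tet-Myc/YAP, the 1 Myc peak of tet-Myc and of tet-Myc/YAP was found in the other (100%), and 0% of YAP peaks overlapped Myc. In the upper part of the lists by score, H3K4me3 covered 6.89 kb in wild-type liver, 10.8 kb in tet-Myc, 6.14 kb in tet-YAP liver and 11.2 kb in tet-Myc/YAP. H3K27ac then covered 73.2, 158.8, 164.9 and 164.5 kb in this order, and wild-type H3K4me1 93.3 kb. The Myc wild-type and YAP tet-YAP lists had short estimated fragments and the marks have no stated depth, and the part of either in these values was not tested.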
